A study of Mus musculus with 30 samples.

Results

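Cathepsins are the proteases that break down proteins inside lysosomes, and 10 of their genes, Ctsa, Ctsb, Ctsc, Ctsd, Ctsf, Ctsh, Ctsk, Ctsl, Ctss and Ctsz, were followed in the mouse soleus, a slow postural muscle of the calf. They were found by gene symbol, 1 row each, among 56980 genes of the count table, under the Ensembl identifiers Ctsa ENSMUSG00000017760 (chromosome 2), Ctsb ENSMUSG00000021939 (chromosome 14), Ctsc ENSMUSG00000030560 (chromosome 7), Ctsd ENSMUSG00000007891 (chromosome 7), Ctsf ENSMUSG00000083282 (chromosome 19), Ctsh ENSMUSG00000032359 (chromosome 9), Ctsk ENSMUSG00000028111 (chromosome 3), Ctsl ENSMUSG00000021477 (chromosome 13), Ctss ENSMUSG00000038642 (chromosome 3) and Ctsz ENSMUSG00000016256 (chromosome 2), with chromosomes from the GRCm38 annotation. All 10 passed the filter on low counts, as did 16932 genes in all. The 30 libraries came from C57BL/6J mice aged 3 to 4 months that carried floxed alleles of both AMPK catalytic subunits, AMPKalpha1 and alpha2. In the 8 HU mKO and 7 AMB mKO mice both subunits were deleted in a muscle-specific manner, and the 7 HU Ctrl and 8 AMB Ctrl mice had no Cre. HU mice were unloaded for 4 weeks and AMB mice were ambulatory for the same 4 weeks. The promoter that drove Cre is not given in the labels, and cells of the muscle other than fibres are not stated to have lost the subunits. Each group held both sexes, with 15 females and 15 males overall.

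Cathepsins are made as inactive precursors, sorted to the lysosome largely by mannose 6-phosphate receptors, and activated there by cleavage at acid pH. Cathepsin D is an aspartic protease and cathepsin A a serine carboxypeptidase, whereas the others here are cysteine proteases of the papain family, held in check by cystatins. In muscle they act at the end of autophagy, and cathepsin L transcripts are known to rise in several kinds of muscle wasting. AMPK, the energy-sensing kinase deleted here, phosphorylates regulators of autophagy.

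Levels are given as CPM, the counts of a gene relative to the library total after normalisation between libraries, as lowest, median and highest library of a group. Library totals ran from 12083415 to 20895263 counts. Prkaa2, which encodes AMPKalpha2, lay between 56.0 and 112 CPM in HU mKO against 130 and 346 CPM in HU Ctrl, and between 15.0 and 85.1 CPM in AMB mKO against 170 and 258 CPM in AMB Ctrl. In both pairs every mKO library was below every control. Prkaa1, which encodes AMPKalpha1 and is made by many cell types, overlapped, with 13.4 to 24.3 CPM in HU mKO against 22.4 to 30.4 CPM in HU Ctrl and 8.21 to 36.2 CPM in AMB mKO against 16.5 to 24.9 CPM in AMB Ctrl. Library AMB mKO replicate 2 stood apart from the other libraries of its group. It had 116 CPM of Myh7, the slow myosin heavy chain that marks soleus fibres, where the other 6 AMB mKO libraries had 6891 to 16581 CPM. It also had 903 CPM of Adipoq, an adipocyte hormone, where those 6 had 2.92 to 142 CPM. The Prkaa1 value of 36.2 CPM was also from this library. Without it AMB mKO ended at 17.9 CPM of Prkaa1, which still overlapped AMB Ctrl. The Prkaa2 value of 15.0 CPM was from this library too, and the next AMB mKO library had 37.8 CPM. Results that rest on this library are therefore given with and without it. The muscle holds several cell types, and in bulk RNA fewer cells of a type and less RNA per cell cannot be told apart.

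Per kilobase of exon, Ctsd and Ctsb were the most abundant of the 10. Ctsd averaged 107 ± 24.96 CPM per kb over all 30 libraries (SD) and exceeded Ctsb, at 55.0 ± 19.6 CPM per kb, in 29 of 30 libraries. Ctsb exceeded Ctsl in all 30. Ctsl (19.5 ± 5.94 CPM per kb) and Ctsa (17.3 ± 2.32) could not be ordered, with Ctsl higher in 16 of 30 libraries. Ctsf, Ctsz, Ctsh, Ctsk, Ctss and Ctsc followed, from 14.5 down to 4.12 CPM per kb. Ctsf exceeded Ctsz in 21 libraries, Ctsh exceeded Ctsk in 18 and Ctsk exceeded Ctss in 16, so these neighbours overlapped. The places of Ctsf and Ctsh depend on which exons are counted, since with all annotated exons in place of the basic set they averaged 5.71 and 2.94 CPM per kb. Of the 10, Ctsa varied least between libraries. Within groups its log2 level had a standard deviation of 0.091, against a median of 0.42 over all genes tested. Ctsk, at 0.92, and Ctss, at 0.64, varied more than most genes.

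In control mice, 3 of the 10 genes changed with unloading, where 11.1% of all genes tested were called in this comparison. Ctsd and Ctsa were lower and Ctsl was higher in unloaded muscle, and the other 7 did not pass the test. A gene was called at an adjusted p below 0.05 (edgeR quasi-likelihood test with Benjamini-Hochberg adjustment over all genes tested). Called in 1 direction, the shares of all genes were 5.74% lower and 5.37% higher. The median change of the 10 genes was -0.036 on the log2 scale, beside 0.027 for all genes. In mKO mice 2 of the 10 were called, Ctsd and Ctsa, both again lower, where 10.1% of all genes were called (4.75% lower and 5.3% higher). The median of the 10 was -0.27 there, beside -0.035 for all genes. This mKO median includes AMB mKO replicate 2 and was not taken without that library. The pairs of unloaded and ambulatory groups share no library between genotypes, but all come from 1 model and each also enters a genotype comparison.

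**Figure D1:**
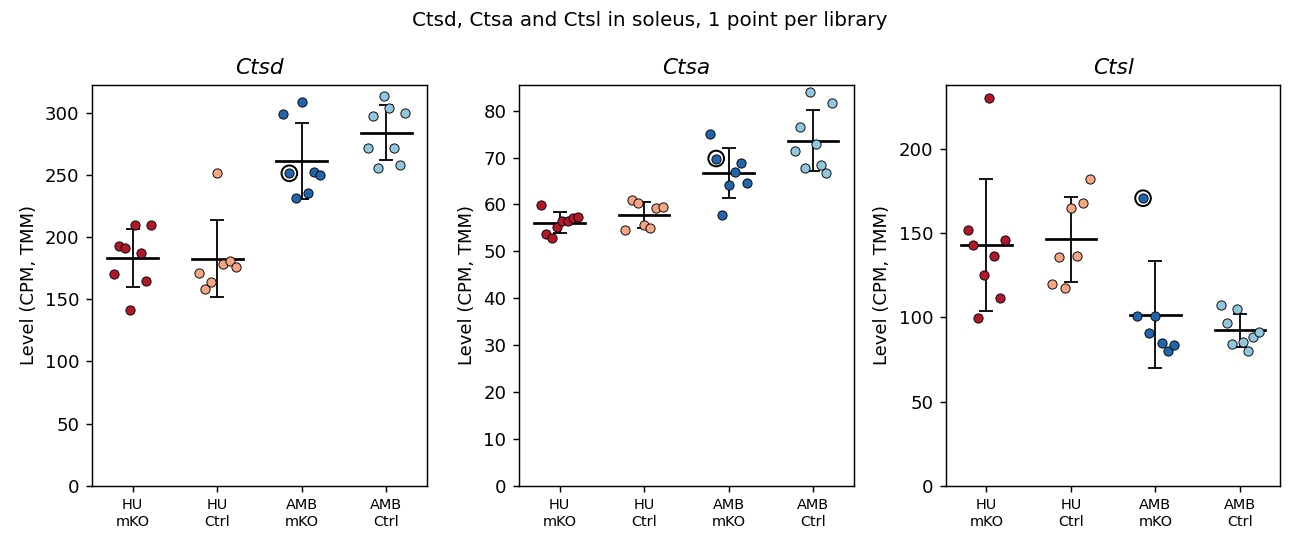
Level of Ctsd, Ctsa and Ctsl in CPM (vertical axes, linear) in the HU mKO, HU Ctrl, AMB mKO and AMB Ctrl groups, 1 point per library. Horizontal lines are group means, bars are SD and the ringed point is AMB mKO replicate 2. Ctsd and Ctsa lie lower in unloaded groups, with 1 AMB mKO library of Ctsa at 57.8 CPM inside the unloaded range, and Ctsl lies higher in HU Ctrl than in AMB Ctrl.

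Ctsd encodes the main aspartic protease of the lysosome. In control mice it measured 158, 176 and 251 CPM (lowest, median and highest) in HU Ctrl, against 256, 285 and 314 CPM in AMB Ctrl. The ranges did not overlap, although a single HU Ctrl library at 251 CPM came close to the ambulatory range and the next lay at 181 CPM. Ctsd was 1.55-fold lower in HU Ctrl (log2 change -0.63 ± 0.12, SE, edgeR adjusted p = 0.000933). In mKO mice it measured 142, 189 and 210 CPM in HU mKO, against 232, 251 and 309 CPM in AMB mKO. The ranges again did not overlap. Ctsd was 1.43-fold lower in HU mKO (log2 change -0.52 ± 0.12, edgeR adjusted p = 0.00647). It was lower in the unloaded mice within each of the 3 letters that end the sample titles, a, b and c, in both genotypes. It was called in both genotypes under all alternatives tried and whichever library was left out.

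Ctsa encodes the carboxypeptidase also known as protective protein, which stabilises neuraminidase 1 and beta-galactosidase in a lysosomal complex. It measured 54.5, 59.3 and 60.9 CPM in HU Ctrl, against 66.8, 72.1 and 83.9 CPM in AMB Ctrl. Every HU Ctrl library was below every AMB Ctrl library. The change was small, 1.26-fold lower in HU Ctrl (log2 change -0.33 ± 0.07, edgeR adjusted p = 0.00331). In mKO mice Ctsa measured 52.8, 56.4 and 59.9 CPM in HU mKO, against 57.8, 67.0 and 74.9 CPM in AMB mKO. Here 1 AMB mKO library, at 57.8 CPM, lay inside the unloaded range and the others began at 64.1 CPM. Ctsa was 1.21-fold lower in HU mKO (log2 change -0.27 ± 0.07, edgeR adjusted p = 0.0175). Without the filter on low counts the adjusted p was 0.160 in mKO mice and 0.0706 in controls, and with the compared groups alone in the model it was 0.105 in mKO mice. Exons of Ctsa share bases with exons of Pltp and Neurl2 on the opposite strand, and the strand setting of the authors' counting is not given. Pltp, a lipid transfer protein, had log2 changes of -0.51 ± 0.22 in HU mKO (adjusted p = 0.138) and -0.49 ± 0.22 in HU Ctrl (adjusted p = 0.161). Its part in the Ctsa values was not tested.

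Among genes tested, the ranges of unloaded and ambulatory controls did not overlap for 3.56%, and Ctsd, Ctsa and Ctsl were among them. In mKO mice the share was 1.51%, and Ctsd was the only one of the 10.

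Ctsl encodes cathepsin L, a cysteine endopeptidase. It measured 118, 137 and 182 CPM in HU Ctrl, against 80.0, 89.8 and 107 CPM in AMB Ctrl. All 7 unloaded controls were above all 8 ambulatory controls. Ctsl was 1.599-fold higher in HU Ctrl (log2 change 0.68 ± 0.16, edgeR adjusted p = 0.00709), and it was called under all alternatives tried. In mKO mice it measured 99.4, 140 and 230 CPM in HU mKO, against 79.8, 90.5 and 171 CPM in AMB mKO. The 171 CPM belonged to AMB mKO replicate 2, and the next AMB mKO library had 101 CPM. With all libraries the log2 change was 0.48 ± 0.16 (edgeR adjusted p = 0.0592), which did not pass. It passed in 4 of 9 other settings, with DESeq2, with limma, with sex left out and without the 3 libraries highest in adipocyte genes. Without AMB mKO replicate 2 it was 0.69 ± 0.15 (edgeR adjusted p = 0.00209), and 3 of the 10 genes were then called where 13.5% of all genes were. Ctsl was also called without HU mKO replicate 3 (adjusted p = 0.0289). Within title letters a and b the mKO difference was 0.88 and 0.57 log2 units, and within letter c, which holds AMB mKO replicate 2, it was 0.056. In controls the differences within letters a, b and c were 0.74, 0.96 and 0.38. Exons of Ctsl overlap those of the antisense gene Gm47123, whose count was 0 in every library. Ctsl also shares 395 exon bases with the pseudogene Gm49230 on the same strand, and Ctsd shares 808 with Gm49369 on the same strand. The counts of Gm49230 and Gm49369 were also 0 in every library. How reads on the shared bases were assigned was not tested.

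**Figure D2:**
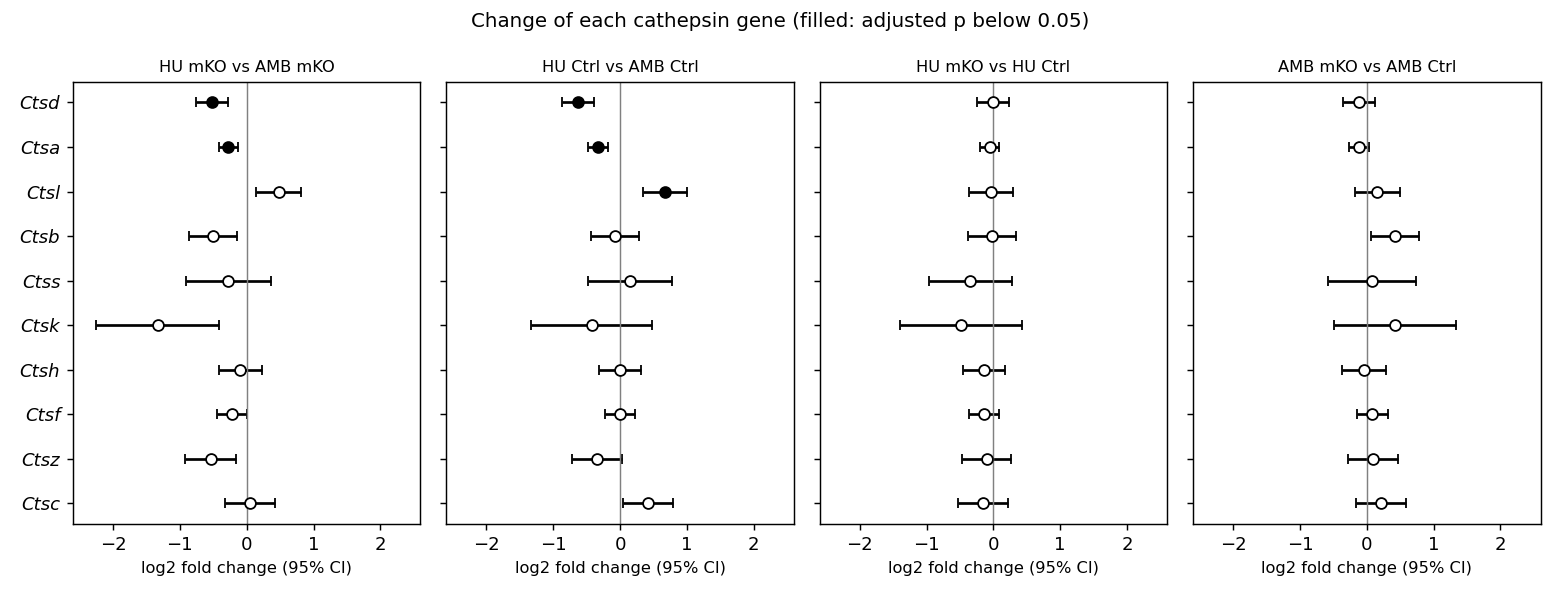
Log2 fold change of each gene (horizontal axes) in HU mKO over AMB mKO, HU Ctrl over AMB Ctrl, HU mKO over HU Ctrl and AMB mKO over AMB Ctrl. Points are model estimates, bars 95% confidence intervals, and filled points have an adjusted p below 0.05. Filled points are Ctsd and Ctsa in both unloading comparisons and Ctsl in controls, and no point is filled in the genotype comparisons.

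The 250 bases before the annotated starts of the genes that fell in both genotypes are shown because lysosomal genes, cathepsins included, are known targets of TFEB, TFE3 and MITF, factors that bind E-boxes with the core CACGTG. The RefSeq promoter table (build GRCm38.p6) held 8 of the 10 genes, without Ctsb and Ctsh. The Ctsd window was chr7:142387828-142388077 on the minus strand. The table lists 2 starts for Ctsa on the plus strand, and the windows before them were chr2:164832622-164832871 and chr2:164833523-164833772, the second inside the gene. They read 5′ to 3′, with CACGTG in capitals:
Ctsd: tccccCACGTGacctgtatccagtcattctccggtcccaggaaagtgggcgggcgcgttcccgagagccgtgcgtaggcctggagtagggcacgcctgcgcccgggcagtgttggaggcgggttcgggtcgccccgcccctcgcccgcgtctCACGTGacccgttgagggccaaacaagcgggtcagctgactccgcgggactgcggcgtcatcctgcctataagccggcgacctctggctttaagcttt
Ctsa, upstream start: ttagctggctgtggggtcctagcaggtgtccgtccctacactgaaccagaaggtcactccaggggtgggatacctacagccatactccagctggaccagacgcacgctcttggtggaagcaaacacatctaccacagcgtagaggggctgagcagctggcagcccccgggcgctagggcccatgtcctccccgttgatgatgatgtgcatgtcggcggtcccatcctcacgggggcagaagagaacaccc
Ctsa, internal start: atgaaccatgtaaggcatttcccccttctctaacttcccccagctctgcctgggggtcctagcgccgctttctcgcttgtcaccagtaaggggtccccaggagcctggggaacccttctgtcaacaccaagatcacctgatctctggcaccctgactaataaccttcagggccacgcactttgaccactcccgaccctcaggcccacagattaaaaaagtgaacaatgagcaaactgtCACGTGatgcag
The Ctsd window held 2 copies, which began 245 and 98 bases before the start. The internal Ctsa window held 1 copy, 12 bases before its start, and the upstream one held none. Of the other genes, the windows of Ctsl and Ctsf held 1 copy each and those of Ctsc, Ctsk, Ctss and Ctsz none. The Ctsl window lay within the annotated gene. CACGTG reads the same on both strands and was present in 6.02% of the 32851 promoter windows of the same length. The forkhead motif GTAAACA, searched on both strands, was in none of the windows of these genes and in 3.17% of all windows. These matches are letters in a window, and binding was not measured. Transcripts of Tfeb, Tfe3 and Mitf did not pass the test in either unloading comparison, with log2 changes of 0.27, -0.15 and 0.015 in HU mKO and 0.20, -0.09 and 0.17 in HU Ctrl.

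The other cysteine endopeptidases, Ctsb, Ctsk, Ctss and Ctsf, did not pass the edgeR test in either genotype. Ctsb encodes an endopeptidase that also trims dipeptides from the carboxyl end. It measured 204, 233 and 246 CPM in HU Ctrl, against 218, 254 and 286 CPM in AMB Ctrl (log2 change -0.07 ± 0.17, edgeR adjusted p = 0.845). In mKO mice it measured 190, 230 and 310 CPM in HU mKO, against 239, 270 and 729 CPM in AMB mKO. The value of 729 CPM came from AMB mKO replicate 2, and the other 6 AMB mKO libraries ended at 276 CPM. The log2 change was -0.51 ± 0.18 with that library (edgeR adjusted p = 0.0622) and -0.12 ± 0.12 without it (adjusted p = 0.537). The highest HU mKO values of Ctsb, 310 and 301 CPM, were in replicates 2 and 3, which were also the highest of that group in Adipoq, at 200.4 and 199 CPM. The part of adipose tissue in the Ctsb values was not tested. Ctsb shares 774 exon bases with Fdft1, an enzyme of sterol synthesis on the opposite strand, which had log2 changes of 0.62 ± 0.23 in HU mKO (adjusted p = 0.0787) and 0.64 ± 0.22 in HU Ctrl (adjusted p = 0.0632).

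Ctsk encodes the collagen-degrading cathepsin of osteoclasts, also made by fibroblasts. It measured 2.24, 7.85 and 28.6 CPM in HU Ctrl, against 5.42, 13.9 and 19.9 CPM in AMB Ctrl (log2 change -0.43 ± 0.44, edgeR adjusted p = 0.583). In HU mKO it measured 3.31, 6.38 and 12.3 CPM, against 4.41, 11.4 and 35.4 CPM in AMB mKO. The mKO ranges overlapped over most of the unloaded range, and 3 of the 7 AMB mKO libraries were above all HU mKO libraries. The log2 change of -1.33 ± 0.45 was the largest of the 10 genes but did not pass (edgeR adjusted p = 0.0568), and without AMB mKO replicate 2 it was -1.03 ± 0.50 (adjusted p = 0.176). Ctsk, Ctsb and Ctsz each passed in mKO mice in 2 of 9 other settings, with DESeq2 and with title letters added to the model, at lowest adjusted p-values of 0.0267, 0.036 and 0.029. Genes for matrix proteins that cathepsin K cuts were read beside it. Of 6 tested matrix genes, 4 fell in HU mKO (Col1a1, Col1a2, Col3a1 and Sparc) and 3 in HU Ctrl (Col1a1, Col3a1 and Sparc). Over all genes tested, 4.75% were called lower in HU mKO and 5.74% in HU Ctrl. Col3a1, a fibrillar collagen, changed by -2.61 ± 0.54 (adjusted p = 0.00379) in HU mKO and by -1.63 ± 0.52 (adjusted p = 0.0394) in HU Ctrl. The same 4 matrix genes were called in mKO mice without AMB mKO replicate 2. Of 7 osteoclast markers 3 were tested and none was called, and their summed level was 50.9 to 99.8 CPM in HU mKO, 42.6 to 90.9 CPM in HU Ctrl, 57.5 to 101 CPM in AMB mKO and 64.2 to 83.3 CPM in AMB Ctrl. Most of this sum was 1 gene, Nfatc1, with a mean of 65.4 CPM over all libraries. Acp5 and Calcr averaged 6.24 and 1.24 CPM, so the sum says little of osteoclasts.

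**Figure D3:**
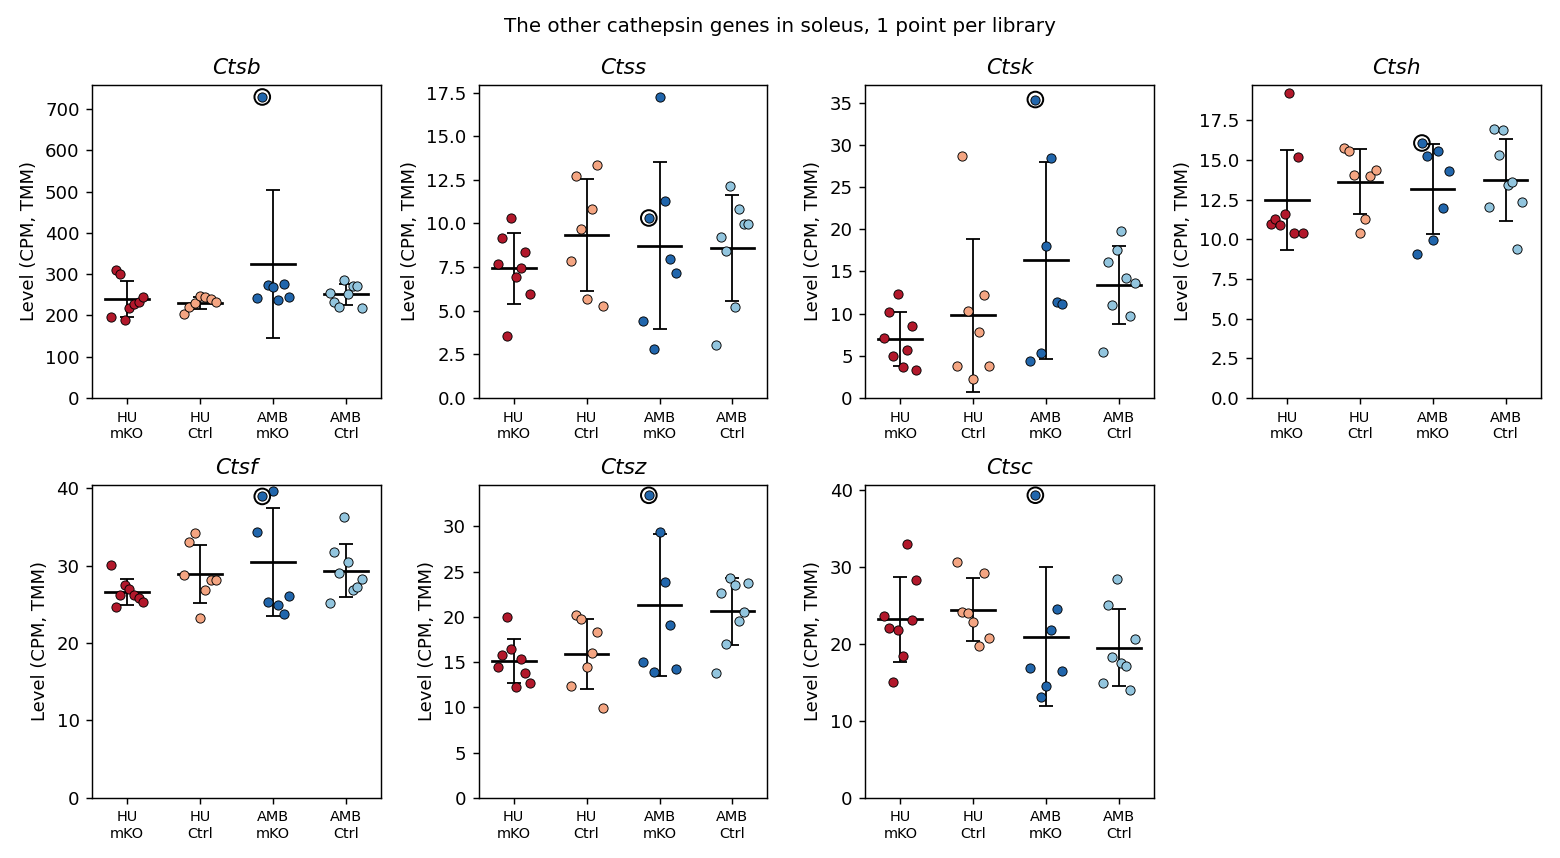
Level in CPM (vertical axes, linear) of the 7 genes not called in either unloading comparison, in the HU mKO, HU Ctrl, AMB mKO and AMB Ctrl groups, 1 point per library. Lines are means, bars SD and the ringed point is AMB mKO replicate 2, which is the highest of its group in Ctsb, Ctsk, Ctsz, Ctsc and Ctsh. Ranges of unloaded and ambulatory groups overlap for every gene shown.

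Ctss encodes the cathepsin that trims the invariant chain for antigen presentation on MHC class II. It measured 3.58, 7.55 and 10.3 CPM in HU mKO, against 2.82, 7.96 and 17.2 CPM in AMB mKO. In controls it measured 5.27, 9.70 and 13.3 CPM in HU Ctrl, against 3.05, 9.59 and 12.1 CPM in AMB Ctrl. The ranges overlapped almost wholly, and the log2 changes were -0.28 ± 0.31 in HU mKO (edgeR adjusted p = 0.602) and 0.15 ± 0.31 in HU Ctrl (adjusted p = 0.806). The genes of MHC class II presentation were read beside it. Of 9 tested, 6 fell in HU mKO (H2-Ob, H2-Aa, H2-Eb1, Cd74, H2-Ab1 and Ciita) and 1, H2-Ob, fell in HU Ctrl. The shares of all genes called lower were 4.75% in HU mKO and 5.74% in HU Ctrl. Cd74, the invariant chain, had a log2 change of -1.28 ± 0.32 in HU mKO (adjusted p = 0.0123) and of -0.64 ± 0.32 in HU Ctrl (adjusted p = 0.206). Without AMB mKO replicate 2, 4 of the 9 were called in mKO mice, where 13.5% of all genes were called in either direction. Of 14 macrophage markers none was called in either comparison with all libraries, and 1, Cx3cr1, was called lower in HU mKO without AMB mKO replicate 2. Their values in HU mKO were all 14 on the lower side with that library, and 11 lower and 3 higher without it. Their summed level was 188 to 262 CPM in HU mKO against 145 to 560 CPM in AMB mKO, and 150 to 386 CPM in HU Ctrl against 142 to 333 CPM in AMB Ctrl. The highest AMB mKO sum was that of replicate 2, and the next was 361 CPM. Of 7 dendritic cell markers 3 were tested, and only Zbtb46 fell, in both genotypes. It averaged 11.6 CPM over all libraries. Itgax and Cd209a, which were not called, averaged 0.83 and 0.91 CPM, so the list rests on 1 gene.

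Ctsf, a cathepsin of broad lysosomal proteolysis, measured 24.7, 26.2 and 30.03 CPM in HU mKO, against 23.8, 26.1 and 39.6 CPM in AMB mKO. In controls it measured 23.2, 28.1 and 34.2 CPM in HU Ctrl, against 25.2, 28.7 and 36.2 CPM in AMB Ctrl. Medians in each pair lay within 1 CPM. The log2 changes were -0.22 ± 0.11 in HU mKO (edgeR adjusted p = 0.194) and -0.00096 ± 0.11 in HU Ctrl (adjusted p = 0.997), with a 95% interval of -0.23 to 0.23 in controls.

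The exopeptidases Ctsh, Ctsz and Ctsc did not pass the test either. Ctsh, an aminopeptidase, ranged from 10.4 to 19.2 CPM in HU mKO against 9.07 to 16.1 CPM in AMB mKO, and from 10.4 to 15.7 CPM in HU Ctrl against 9.39 to 17.0 CPM in AMB Ctrl. Its log2 change in controls was -0.00047 ± 0.16, with a 95% interval from -0.32 to 0.32. Ctsz, a carboxypeptidase also called cathepsin X, measured 12.2, 14.9 and 19.9 CPM in HU mKO, against 13.9, 19.1 and 33.4 CPM in AMB mKO. Its log2 change was -0.54 ± 0.18 (edgeR adjusted p = 0.0585), and -0.36 ± 0.19 (adjusted p = 0.218) without AMB mKO replicate 2. In controls Ctsz measured 9.98, 15.98 and 20.2 CPM in HU Ctrl, against 13.8, 21.6 and 24.3 CPM in AMB Ctrl (log2 change -0.35 ± 0.18, adjusted p = 0.226). Its values were on the lower side in both genotypes, with overlapping ranges.

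Ctsc encodes dipeptidyl peptidase 1, which activates the granule proteases of mast cells, neutrophils and cytotoxic lymphocytes. It measured 19.7, 23.9 and 30.6 CPM in HU Ctrl, against 14.0, 17.8 and 28.4 CPM in AMB Ctrl (log2 change 0.42 ± 0.18, edgeR adjusted p = 0.142). In HU mKO it measured 15.1, 22.5 and 33.0 CPM, against 13.1, 16.9 and 39.3 CPM in AMB mKO (log2 change 0.05 ± 0.18, adjusted p = 0.880), and without AMB mKO replicate 2, the library at 39.3 CPM, the log2 change was 0.28 ± 0.17 (adjusted p = 0.290). Of 9 granule proteases 4 were tested and none was called. Their values were 3 lower and 1 higher in HU Ctrl, and all 4 lower in HU mKO. Without AMB mKO replicate 2 they were 2 lower and 2 higher in HU mKO. Of 4 tested markers of lymphocytes, neutrophils and mast cells, Kit rose in HU Ctrl by 1.00 ± 0.28 log2 units (adjusted p = 0.0207) and stood at 0.77 ± 0.28 in HU mKO (adjusted p = 0.0779). Kit was called higher in HU mKO as well without AMB mKO replicate 2. With all libraries, 5.37% of all genes were called higher in HU Ctrl and 5.3% in HU mKO. Kit averaged 5.79 CPM over all libraries, Cpa3 2.36 CPM, and S100a8 and S100a9 0.56 and 0.59 CPM. The call is thus that of 1 gene and says little of a cell type.

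**Figure D4:**
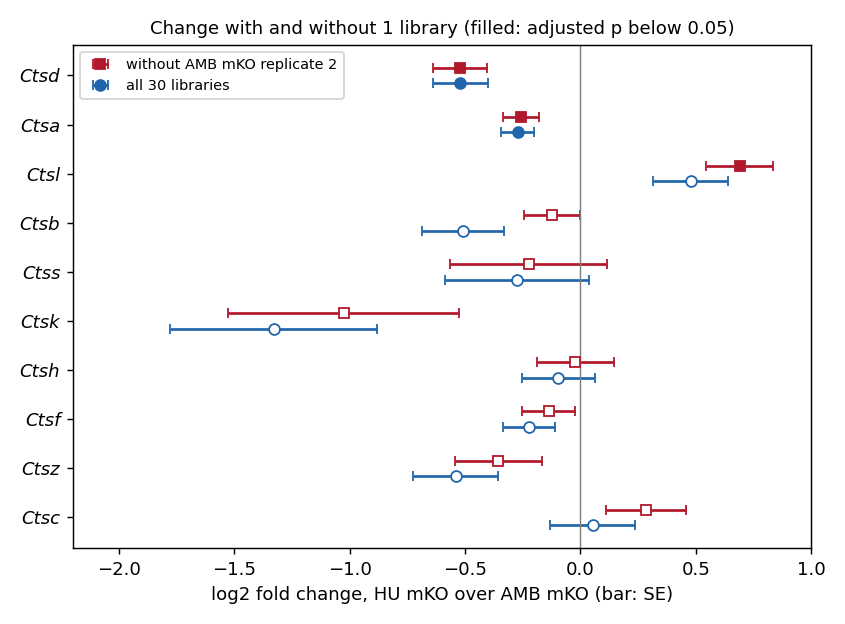
Log2 fold change of each gene in HU mKO over AMB mKO (horizontal axis) without AMB mKO replicate 2 (squares) and with all 30 libraries (circles). Bars are SE and filled symbols have an adjusted p below 0.05. Ctsl is filled only without that library, and Ctsb moves to -0.12 without it against -0.51 with it.

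Deletion of AMPK moved none of the 10 genes past the threshold. In unloaded mice, HU mKO against HU Ctrl, 0 of the 10 were called, as were 0.0177% of all genes tested, and none of the 10 had an unadjusted p below 0.05. In ambulatory mice, AMB mKO against AMB Ctrl, 0 of the 10 were called, again against 0.0177% of all genes, and 1, Ctsb, had an unadjusted p below 0.05. That Ctsb value was 0.42 ± 0.17 log2 units with AMB mKO replicate 2 and 0.07 ± 0.12 without it. DESeq2 called none of the 10 in either genotype comparison. For Ctsd the log2 change was -0.0016 in HU mKO over HU Ctrl, with a 95% interval from -0.24 to 0.24, and -0.11 in AMB mKO over AMB Ctrl, with an interval from -0.35 to 0.13. For Ctsa it was -0.06, from -0.20 to 0.09, in unloaded mice and -0.12, from -0.27 to 0.03, in ambulatory mice. Median changes of the 10 were -0.12 in unloaded and 0.087 in ambulatory mice, beside 0.011 and 0.023 for all genes. The ambulatory median includes AMB mKO replicate 2. Without that library the ambulatory values of Ctsc, Ctsl and Ctsz went from positive to -0.02, -0.05 and -0.08, so the sign of this median is not settled.

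The response to unloading was set against genotype in the same model. For the interaction 0 of the 10 genes were called (0% of all genes tested, 410 genes at an unadjusted p below 0.05, none of the 10 among them). The difference between the unloading responses of mKO and control mice was 0.11 ± 0.17 log2 units for Ctsd, 0.06 ± 0.10 for Ctsa and -0.20 ± 0.23 for Ctsl. For Ctsl the 95% interval ran from -0.67 to 0.27, and without AMB mKO replicate 2 the difference was 0.02 ± 0.20. The largest were -0.91 ± 0.63 for Ctsk and -0.44 ± 0.25 for Ctsb. Without AMB mKO replicate 2 they were -0.62 ± 0.67 and -0.03 ± 0.17, so the Ctsb value rests on that library. The Ctsl call in controls and its missed call in mKO mice are thus not shown to differ. Between the sexes 0 of the 10 were called (0.213% of all genes), with all 10 values on the higher side in females. Of these, 2, Ctsb at 0.28 ± 0.13 and Ctsc, had an unadjusted p below 0.05, and DESeq2 also called none of the 10 for sex or for the interaction. The largest sex differences were in Ctsk, at 0.43 ± 0.32 log2 units, and Ctsc, at 0.33 ± 0.13 (adjusted p = 0.296). Without AMB mKO replicate 2, a female, Ctsl was at -0.03 ± 0.10, Ctsc at 0.21 ± 0.12, Ctsb at 0.08 ± 0.08 and Ctsk at 0.25 ± 0.36. The edgeR unadjusted p was then 0.347 for Ctsb and 0.104 for Ctsc.

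Markers of other cell types were read beside these results. The 10 adipocyte markers held no called gene in either unloading comparison, but their summed level reached 17626 CPM in AMB mKO replicate 2, where the next AMB mKO library had 5139 CPM and the HU mKO libraries ended at 6553 CPM. In controls the adipocyte sum ended at 3581 CPM in HU Ctrl and at 4571 CPM in AMB Ctrl. Car3 weighed most in this sum, with a mean of 2622 CPM over all libraries against 63.7 CPM for Adipoq. The HU Ctrl library at 3581 CPM, replicate 1, had 0.206 CPM of Adipoq, the lowest of all libraries. Outside AMB mKO replicate 2 the sum therefore need not follow Adipoq. Of 10 markers of fibro-adipogenic progenitors, the connective tissue precursors of muscle, 2 fell in HU mKO and 1 in HU Ctrl, and 1 fell in HU mKO without AMB mKO replicate 2, whose summed level of 9163 CPM compares with at most 2982 CPM in the other AMB mKO libraries. Of 8 tenocyte markers 1, Scx, fell in each genotype. Of 10 endothelial markers 1 fell in HU mKO and 3 fell in HU Ctrl. Of 10 muscle fibre genes, Myh1 rose and Myh2 fell in both genotypes, both of them fast myosin heavy chains. These counts stand beside shares over all genes of 4.75% lower and 5.3% higher in HU mKO, and 5.74% and 5.37% in HU Ctrl. A single call in a list of 8 or 10 genes does not stand out from those shares. The part of these cell types in the cathepsin values was not tested.

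Other genes of the lysosome were read beside the shares over all genes, which were 4.75% lower in HU mKO and 5.74% lower in HU Ctrl. Of 4 genes for partners and relatives of cathepsin A, Galns and Neu1 fell in both genotypes. Galns, a sulfatase found in the same complex, changed by -0.67 ± 0.18 (edgeR adjusted p = 0.0171) in HU mKO and by -0.98 ± 0.18 (adjusted p = 0.00067) in HU Ctrl. Neu1, the neuraminidase that cathepsin A protects, changed by -0.36 ± 0.11 (adjusted p = 0.0306) in HU mKO and by -0.48 ± 0.11 (adjusted p = 0.00384) in HU Ctrl. Both were also called in mKO mice without AMB mKO replicate 2. Glb1, beta-galactosidase, was at -0.67 ± 0.26 (adjusted p = 0.0918) and -0.14 ± 0.26 (adjusted p = 0.781) in HU mKO and HU Ctrl, and Scpep1, a related carboxypeptidase, was not called.

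Of 29 other lysosomal hydrolases, 4 fell and none rose in HU mKO, and 2 fell and none rose in HU Ctrl, where the share is near that over all genes. Gusb, beta-glucuronidase, and Hexa, a hexosaminidase subunit, fell in both. The log2 change of Gusb was -0.64 ± 0.13 in HU mKO (adjusted p = 0.00263) and -0.55 ± 0.13 in HU Ctrl (adjusted p = 0.00529). Without AMB mKO replicate 2, 3 hydrolase genes fell in HU mKO and 1 rose, with Gusb and Hexa still called. With that library left out, 13.5% of all genes tested were called in either direction. The hydrolase count, and the count without that library in the next list, are near this share. Of 24 genes for lysosomal membrane proteins and the proton pump, 4 fell and 1 rose in HU mKO (3 and 1 without AMB mKO replicate 2), and 3 fell in HU Ctrl. Ostm1, a chloride transporter subunit, and Atp6v0b, a proton pump subunit, fell in both. Npc1, the cholesterol exporter, rose in HU mKO by 0.62 ± 0.17 (adjusted p = 0.0219) and stood at 0.44 ± 0.17 in HU Ctrl (adjusted p = 0.0890). The 11 genes of sorting and maturation, among them the mannose 6-phosphate receptors M6pr and Igf2r, held no called gene in either comparison.

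Among 6 tested inhibitors, Cst3, which encodes the secreted inhibitor cystatin C, rose in HU Ctrl by 0.63 ± 0.19 log2 units (adjusted p = 0.0265) and stood at 0.45 ± 0.19 in HU mKO (adjusted p = 0.115). For this list and the next, the shares over all genes were 5.3% higher and 4.75% lower in HU mKO, and 5.37% and 5.74% in HU Ctrl. Of 13 genes of the autophagy and atrophy programme, Gabarapl1, an autophagosome protein, fell in both genotypes. Its log2 change was -0.93 ± 0.16 in HU mKO (adjusted p = 0.000996) and -1.24 ± 0.17 in HU Ctrl (adjusted p = 3.71e-05). Map1lc3a, another autophagosome protein, rose in HU mKO by 0.86 ± 0.21 (adjusted p = 0.0117) and stood at 0.40 ± 0.21 in HU Ctrl (adjusted p = 0.218). Without AMB mKO replicate 2, Foxo1, a forkhead factor, was also called higher in HU mKO. The ubiquitin ligases Trim63 and Fbxo32 did not pass, at 0.18 ± 0.37 and 0.72 ± 0.37 in HU mKO and -0.67 ± 0.35 and 0.36 ± 0.36 in HU Ctrl. Of 13 further cathepsin genes, Ctso was the only one tested and was not called, and 9 cathepsins known from mouse placenta had a count of 0 in every library. None of the listed genes was called in the genotype, interaction or sex comparisons.

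Within groups, Ctsk, Ctss and Ctsz varied together from mouse to mouse. Correlations were taken over 30 libraries on log2 CPM minus the group mean, for all 45 pairs, with two-sided permutation p-values adjusted over the pairs. Ctsk and Ctsz had Pearson r = 0.77 and Spearman rho = 0.77 (adjusted permutation p = 0.000225 and 0.00045), and without the 2 libraries farthest in Ctsk r was 0.81. Ctsk and Ctss had r = 0.73 and rho = 0.80 (adjusted permutation p = 0.000225 and 0.00045), with r = 0.73 without those 2. Ctss and Ctsz had r = 0.63 and rho = 0.67 (adjusted permutation p = 0.00165 and 0.0015), and 0.51 without the farthest 2. Ctsa and Ctsc had r = 0.55 and rho = 0.59 (adjusted permutation p = 0.0179 and 0.00866), and 0.41 without 2. Ctsf and Ctsz followed at r = 0.54 and rho = 0.48 (adjusted permutation p = 0.0179 and 0.0569), and 0.36 without 2. Ctsa and Ctsf had r = 0.48 and rho = 0.47 (adjusted permutation p = 0.0473 and 0.0638), and 0.36 without 2. Ctsb and Ctsl, a pair chosen after its values were seen, at r = 0.45 and rho = 0.28 (adjusted permutation p = 0.0987 and 0.305), had r = 0.036 without AMB mKO replicate 2 alone and 0.011 without the 2 farthest libraries, so the relation rests on that 1 library. The lowest r was -0.41, rho = -0.25, between Ctsd and Ctsk (adjusted permutation p = 0.0987 and 0.369), and -0.22 without 2. Ctsd and Ctsa, which fell together with unloading, had r = 0.20 within groups.

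**Figure D5:**
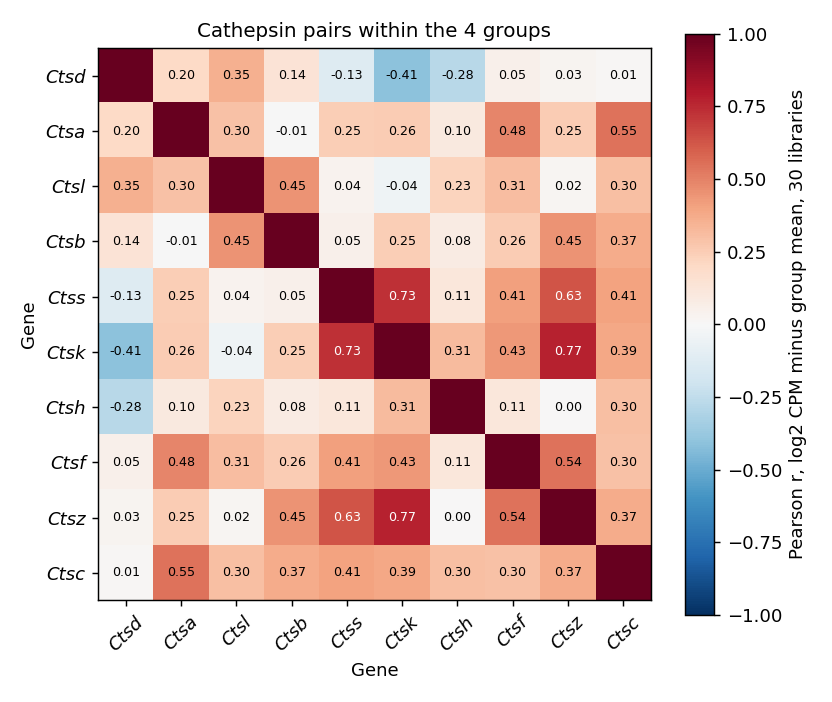
Pearson r between every pair of the 10 genes (both axes) over 30 libraries, on log2 CPM minus the group mean. Colour gives r from -1 to 1 and the number is printed in each cell. Ctsk, Ctss and Ctsz form the block of highest values, 0.63 to 0.77, and Ctsd is at or below 0.35 with every other gene.

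The genes most like each cathepsin by the same measure, among 12329 genes, differed between members. For Ctss they were Csf1r, Pf4 and Lyz2 (r = 0.89, 0.87 and 0.85), 2 of which are macrophage markers of the list used here. For Ctsk they were Mmp2, Timp2 and Scara3 (r = 0.95, 0.93 and 0.92), the first a matrix protease and the second its inhibitor. For Ctsz they were Lrp1, Coro1c and Marveld1 (r = 0.92, 0.91 and 0.91). For Ctsb they were Aplp2, Aco1 and Pgd (r = 0.95, 0.95 and 0.93), which without AMB mKO replicate 2 were at 0.89, 0.90 and 0.80. The closest to Ctsa was Tfap4 (r = 0.81), to Ctsd Washc1 (0.70), to Ctsl Washc2 (0.78), to Ctsc Lrrc17 (0.77), to Ctsf Kdm5b (0.80) and to Ctsh Wls (0.71). Without AMB mKO replicate 2 the closest to Ctsc was Ccl24 (r = 0.75), with Lrrc17 at 0.69, and Washc2 was at 0.71 with Ctsl. Washc1 and Washc2 are both named for the WASH complex, which forms actin on endosomes. These likenesses share libraries and cell content and are descriptions, with no test.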

How the data were processed

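RNA from 30 soleus muscles was sequenced. Per the submitters' processing notes, reads went through cutadapt 1.16, STAR 2.7.9a and featureCounts 1.6.3. The authors deposited raw counts per gene for all libraries in 1 table, with totals of 12083415 to 20895263, so the precision of low genes is limited by counting. The labels name a directional library kit, and the strand setting of the counting is not given in the sources used here.

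Counts were filtered with filterByExpr, scaled by TMM, and fitted with edgeR 4.0.16 (robust quasi-likelihood, R 4.3.3) on group and sex over all 30 libraries. The 6 comparisons were read from this model, with Benjamini-Hochberg adjustment over 16932 genes. CPM per kilobase used GENCODE exon lengths. The script was tested on simulated data. Alternatives were other size factors, DESeq2 1.42.0, limma 3.58.1 with library weights, other filters, other covariates, compared groups only, and libraries left out.

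The members and gene lists were chosen with earlier results of these data known. All 10 genes were named in every comparison. Of each list, the counts called, up to 4 genes with the smallest p and any gene needed to say what did not pass were named. For likeness the 3 highest correlations per gene were named, and of the 45 pairs the 5 highest and the lowest, with Ctsa and Ctsf, Ctsb and Ctsl, and Ctsd and Ctsa added after their values were seen. Replicate numbers follow the order of deposit and name libraries only. No 2 libraries of a group agreed within sampling noise. The edgeR p-values set each difference against the spread between these samples. P-values of the pairs come from permuting the libraries.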

Additional observations from a re-analysis of the deposited data

Results flagged for a closer look

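Among 40 sets of 1 gene in 1 group, 5 had a highest library far from the others by Dixon's test, which flags about 1 in 20 sets by chance. Of these, 2 were in AMB mKO replicate 2. Ctsb reached 729 CPM in that library, and the next AMB mKO library had 276 CPM. Ctsl reached 171 CPM there, and the next had 101 CPM. In HU mKO, Ctsl reached 230 CPM in replicate 5, and the next library had 152 CPM. In HU Ctrl, Ctsd reached 251 CPM in replicate 4, and the next had 181 CPM. Also in HU Ctrl, Ctsk reached 28.6 CPM in replicate 2, and the next had 12.2 CPM.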

How the results depend on the processing

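Ctsd was called in both unloading comparisons under all 9 other settings and with each of the 30 libraries left out. In HU mKO against AMB mKO, where 2 of the 10 genes were called, the count was 6 with DESeq2 (Ctsb, Ctsk, Ctsl and Ctsz added), 5 with the title letter as a covariate (Ctsb, Ctsk and Ctsz added), 3 with limma, with sex left out and without the 3 adipocyte-rich libraries (Ctsl added in each), 1 with no filter on low counts and 1 with only the compared groups in the model, and 2 to 5 with each library left out. The cause of these differences was not tested. The genes gained with a library left out were Ctsb (without AMB Ctrl replicate 7, AMB mKO replicate 1 or 7, or HU mKO replicate 3), Ctsk (without AMB mKO replicate 1 or 3, HU Ctrl replicate 2 or 7, or HU mKO replicate 4), Ctsl (without AMB mKO replicate 2 or HU mKO replicate 3) and Ctsz (without AMB mKO replicate 1, 3 or 7, HU Ctrl replicate 7, or HU mKO replicate 3). None was lost. In HU Ctrl against AMB Ctrl the count of 3 was 2 with no filter on low counts (Ctsa lost), and 3 with each library left out. It was 4 with limma, where Ctsz was added as lower (limma adjusted p = 0.0418). It was also 4 with only the compared groups, where Ctsc was added as higher (edgeR adjusted p = 0.0471). Over all genes and comparisons, called or not, 34 of 510 values changed sign under other settings and 60 of 1800 with a library left out, none of them a called value. Exon lengths from the comprehensive annotation were chosen after seeing the data. No paired analysis was possible because the labels give no replicate number that joins samples across groups.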
